A study of Anser cygnoides with 6 samples.

Results

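Newly made proteins are folded with the help of several families of proteins. J-domain proteins (DnaJ or Hsp40 proteins) bring clients to Hsp70 and start its ATP cycle, and BAG proteins release nucleotide from Hsp70 and so let the client go. Chaperonins are hollow rings in which a protein folds in isolation, while protein disulfide isomerases and the lectin chaperone calnexin fold secreted and membrane proteins in the endoplasmic reticulum (ER), a compartment that is large in hepatocytes because the liver secretes most plasma proteins.

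Co-chaperones, chaperonins and folding enzymes were taken from the liver mRNA table of lion-head geese by the words in a model's description (DnaJ, chaperonin, T-complex protein 1, peptidyl-prolyl cis-trans isomerase, protein disulfide isomerase or BAG family) or by the Gene Ontology term for unfolded protein binding. Of 84 models found, 5 were left out because they were Hsp70 or Hsp90 family proteins, which left 79 members of 21009 models. They comprised 46 models with DnaJ in the description, 12 chaperonins, 6 protein disulfide isomerases, 4 BAG proteins and 11 others found by the ontology term alone. The chaperonins were 8 subunits of the cytosolic ring, Hsp60, Hsp10 and 2 other models of the chaperonin fold. Of these 2, the model on chromosome 3 was also found by the ontology term alone. The 46 are called J-domain models here, though a model may be described only by another domain of DnaJ. The 11 others were 5 prefoldin subunits, 3 models of the calnexin and calreticulin family, and ClpX with 2 torsins, which are AAA+ ATPases. No description held the words peptidyl-prolyl cis-trans isomerase, so no prolyl isomerase was a member.

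Liver was taken from 3 normally-fed and 3 high-intake-fed purebred adult lion-head geese, 1 library per bird. Normally-fed birds ate freely, and high-intake-fed birds were force-fed set meals several times a day on a diet that included boiled rice. Each group was kept in its own isolator, so that feeding and isolator cannot be told apart. Feed was withheld overnight before slaughter, and the sex of the sequenced birds was not stated in the labels or methods.

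Depth was 14154910 to 16993373 counts per library. High-intake-fed replicate 3 stood apart from the other birds, since the median of 72 tested ribosomal protein mRNAs lay 1.06 below the normally-fed mean there, on the log2(CPM + 1) scale (CPM being counts scaled to library size by TMM), against 0.30 and 0.26 above it in replicates 1 and 2. The 8 hepatocyte models (albumin, apolipoprotein B, transferrin and fibrinogen) summed to 243100 to 331000 CPM in normally-fed and 111700 to 259800 CPM in high-intake-fed birds. Albumin and apolipoprotein B overlapped between the groups, while 4 of the 8, transferrin and 3 fibrinogen models, were lower in every high-intake-fed bird and 3 of them over 2-fold lower at an unadjusted p under 0.05, with a median log2 fold change of -1.41 over the 8. The 11 models matched as red blood cell markers were haemoglobins and carbonic anhydrases. The latter were matched by the words Carbonic Anhydrase II, which several models carry, so which of them is that enzyme was not settled. The 11 summed to 213 to 377 CPM in normally-fed and to 555 to 898 CPM in high-intake-fed birds. Of the 7 tested, 6 were over 2-fold higher at an unadjusted p under 0.05. A carbonic anhydrase model at 0.18 to 0.33 CPM against 0.70 to 1.1 CPM passed the filter on low counts only through the high-intake-fed birds. Its place among the 6 supports nothing. The part of red blood cells and of hepatocyte mRNAs in the results was not tested. No macrophage model was found. The 2 biliary models summed to 11.7 to 16.9 CPM in normally-fed and 8.69 to 12.8 CPM in high-intake-fed birds. The 3 stellate models summed to 243.8 to 307 and 132.5 to 189 CPM, and the 1 lymphocyte model lay at 3.37 to 4.12 and 1.46 to 3.16 CPM. The stellate sum was mostly decorin, at 217.6 to 288.4 against 100.8 to 161.2 CPM. Lumican went the other way, at 1.55 to 5.32 against 5.84 to 6.51 CPM, and the remaining stellate model overlapped between the groups. In whole liver, fewer cells of a type and less RNA per cell cannot be told apart.

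Of the 79 members, 73 had enough counts to be tested. The question was how the folding machinery beside Hsp70 and Hsp90 differed between the livers of high-intake-fed and normally-fed geese. None of the 73 reached an adjusted p under 0.05 in edgeR's quasi-likelihood test (Benjamini-Hochberg over all 12914 tested mRNAs), in which 0.643% of all mRNAs were higher and 0.829% lower. At an unadjusted p under 0.05, 22 members were higher and 1 was lower in high-intake-fed geese, against 8.67% and 9.71% of all tested mRNAs. With a fold change over 2 as well, 9 members were higher and 0 lower, against 4.26% and 5.33% of all tested mRNAs. The 9 became 5 without high-intake-fed replicate 2 or without normally-fed replicate 1, and 17 without high-intake-fed replicate 3. With at least 10 counts required in every library they became 7. Over all mRNAs, 190 passed an adjusted p under 0.05 with all birds. In the fits without a bird just named, 161, 44 and 511 did, in that order. How many of all mRNAs passed the fold threshold in those fits was not counted. Whether the changes from 9 were particular to the members was therefore not tested. The median log2 fold change of the 73 members was 0.42 and that of all tested mRNAs 0.04, where without high-intake-fed replicate 2 the members' median was 0.27. Of the 73, 61 members had a log2 fold change above 0, as did 6823 of all 12914 tested mRNAs.

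In CPM, all 3 high-intake-fed birds lay above all 3 normally-fed birds for 25 of the 73 members, or 34.2%, against 11.1% of all tested mRNAs. The two-sided exact permutation test always gives 0.1 for groups so apart, the smallest p that 3 birds against 3 allow. It therefore adds nothing to this count. They lay below them for 3 members, where the share of all tested mRNAs was 13.3%. By FPKM the groups of some of the 25 members overlapped, DNAJA1, DNAJA3, DNAJB12 and CCT zeta among them. How many did so by FPKM, among the members or among all tested mRNAs, was not counted. The share of 34.2% therefore holds for CPM alone. The size of the difference was uneven among the birds. The highest of the 6 libraries was high-intake-fed replicate 2 for 31 members, replicate 1 for 19 and replicate 3 for 14, and replicate 3 was the lowest of its group for 44 members. The same was not counted over all tested mRNAs. Whether this order of birds was particular to the members was therefore not tested.

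Without high-intake-fed replicate 3, 11 members passed an adjusted p under 0.05 and all of them were higher, in a fit in which 2.38% of all mRNAs were higher and 1.52% lower. They were BAG3, DNAJA3, DNAJA4, DNAJB1, DNAJB6, DNAJC7, SEC63, CCT alpha, beta and epsilon, and a torsin. Without replicate 2, 1 member (DNAJB1, higher) passed it, where 0.499% of all mRNAs were higher and 0.718% lower. DESeq2 gave 7 members higher and 0 lower with all 6 birds, where its shares over all mRNAs were 3.44% and 4.2%. The 7 included the model on chromosome 33 (76706 to 79080) taken up below, whose place among them supports nothing. The other linear model, limma trend, called 0.

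**Figure D1:**
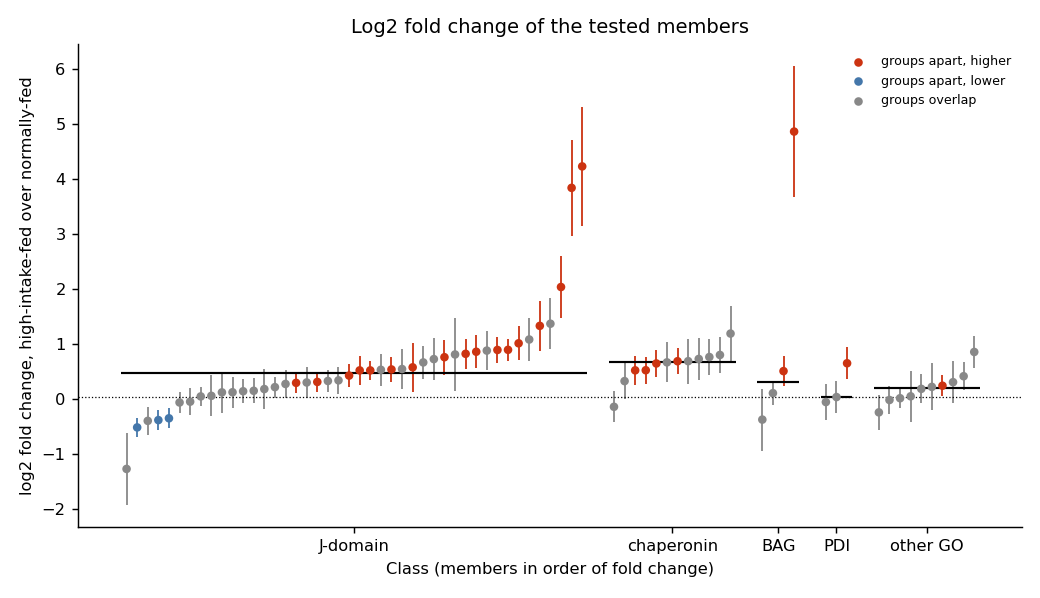
Log2 fold change of the 73 tested members, high-intake-fed over normally-fed, by class, with bars of 1 standard error. Colour marks whether, in CPM, the 3 birds of one group all lay above (25 members), all below (3 members) or among those of the other. Black lines are class medians and the dotted line is the median of all tested mRNAs.

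By class, the median log2 fold change was 0.67 for the 12 chaperonins, 0.47 for the 44 tested J-domain models, 0.30 for the 4 BAG proteins, 0.20 for the 10 other tested models and 0.03 for the 3 tested protein disulfide isomerases. The 2 other models of the chaperonin fold among the 12 had log2 fold changes of 0.52 and -0.15. The members over 2-fold higher at an unadjusted p under 0.05 were 7 J-domain models, 1 chaperonin and 1 BAG protein. Within the J-domain class the DNAJA and DNAJB models had medians of 0.84 and 0.95, over 4 and 6 tested models, and the 13 tested DNAJC models had a median of 0.31. The 15 models without a number or other name had a median of 0.52. The 6 with another name, such as SEC63 and sacsin, had a median of -0.11.

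BAG3 (chromosome 8, 6293282 to 6299760) had the largest log2 fold change of the tested members. It ties Hsp70 to the small heat shock proteins and to selective autophagy of aggregated clients. Its mRNA was measured at 9.63, 12.4 and 11.5 CPM in the normally-fed birds and at 85.4, 861 and 27.2 CPM in the high-intake-fed birds. Every high-intake-fed bird lay above every normally-fed bird, but the high-intake-fed birds themselves spanned a wide range, with replicate 2 far above the others. The log2 fold change was 4.86 ± 1.19 (SE from the fit, n = 3 per group) at an adjusted p of 0.0953 in edgeR. Without high-intake-fed replicate 2 it was 2.33, at an edgeR adjusted p of 0.0608. With all birds, DESeq2 gave an adjusted p of 0.00354.

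The other BAG proteins had log2 fold changes of -0.38 to 0.50. BAG1, a nucleotide exchange factor of Hsp70, had 11.98 ± 1.05 CPM (SD, n = 3) in normally-fed and 12.8 ± 2.38 CPM in high-intake-fed birds. BAG4, which is also known as a silencer of death domains, was at 5.25, 4.79 and 3.93 CPM against 7.23, 5.33 and 7.24 CPM. The BAG4 groups did not overlap, with a log2 fold change of 0.50 ± 0.28 (SE) and an edgeR adjusted p of 0.381. BAG2, known for holding back the ubiquitin ligase CHIP, lay at or below 1.22 CPM in every bird.

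DNAJB1 (chromosome 37, 272600 to 275984) is the main heat-inducible J-domain protein of the cytosol in mammals. It was measured at 6.84, 7.50 and 6.06 CPM in normally-fed and at 28.2, 335.5 and 18.0 CPM in high-intake-fed birds. As for BAG3, replicate 2 was more than 10 times the other high-intake-fed birds and the groups were apart. The log2 fold change was 4.22 ± 1.09 (SE) at an edgeR adjusted p of 0.104. Without replicate 2 it was 1.76, at an adjusted p of 0.0397, and DESeq2 gave no adjusted p for it.

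DNAJA4 (chromosome 13, 14933835 to 14938963) is a J-domain protein of the type that resembles bacterial DnaJ. Its levels were 39.9, 30.6 and 35.4 CPM in the normally-fed birds against 402, 1047 and 59.0 CPM in the high-intake-fed birds. The lowest high-intake-fed bird, replicate 3, was still above all normally-fed birds. The log2 fold change was 3.83 ± 0.88 (SE), with an adjusted p of 0.0816 in edgeR and 0.00347 in DESeq2. It was 2.71 at an edgeR adjusted p of 0.111 without replicate 2, and 4.36 at one of 0.0130 without replicate 3.

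DNAJB4 (chromosome 10, 20666220 to 20671973), a close relative of DNAJB1, showed the same order of high-intake-fed birds. It had 44.2, 53.5 and 53.5 CPM in normally-fed and 90.1, 227 and 62.3 CPM in high-intake-fed birds. The log2 fold change was 1.32 ± 0.45 (SE) at an edgeR adjusted p of 0.175, and 0.60 without replicate 2. DESeq2 gave an adjusted p of 0.0470. DNAJB6 (chromosome 2, 11662683 to 11667619), which keeps polyglutamine proteins from aggregating, had 12.8, 7.92 and 11.2 CPM against 22.7, 27.4 and 13.99 CPM. The DNAJB6 groups were apart, with a log2 fold change of 1.01 ± 0.31 (SE) and an edgeR adjusted p of 0.147, and 0.79 without replicate 2.

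**Figure D2:**
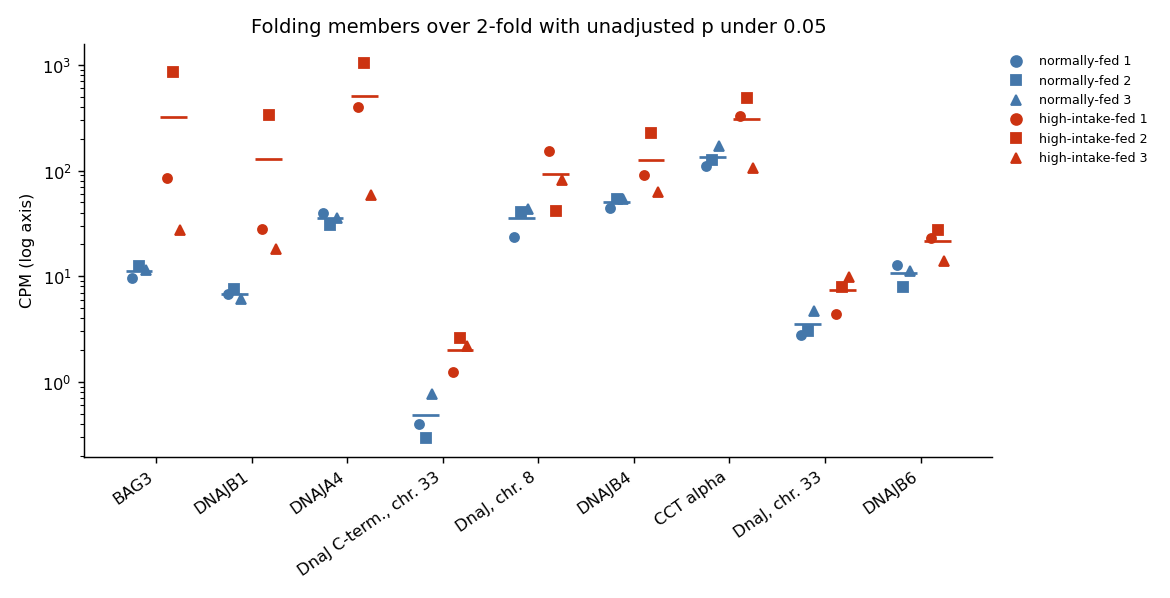
CPM on a log axis of the 9 members over 2-fold higher at an unadjusted p under 0.05, with each bird as a point and group means as lines. High-intake-fed replicate 2 (squares) was the highest bird for BAG3 at 861 CPM, DNAJB1 at 335.5 CPM and DNAJA4 at 1047 CPM, and replicate 1 for the DnaJ model of chromosome 8 at 153 CPM.

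The 3 other models of the J-domain class over 2-fold higher had a domain of DnaJ but no name in the description. One on chromosome 8 (26185557 to 26194942) was at 23.5, 40.9 and 42.8 CPM in normally-fed and at 153, 41.6 and 81.8 CPM in high-intake-fed birds. Here replicate 1 was the highest bird and replicate 2 lay among the normally-fed birds, unlike the order seen for BAG3. The log2 fold change was 1.36 ± 0.46 (SE) at an edgeR adjusted p of 0.174, and 0.78 without replicate 1, and DESeq2 gave an adjusted p of 0.0486. A model on chromosome 33 (76706 to 79080), with only the C-terminal domain of DnaJ, had 0.30 to 0.77 CPM against 1.25 to 2.60 CPM, and its FPKM was 0 in 5 of the 6 libraries. It passed the filter on low counts only through the high-intake-fed birds. DESeq2 gave it an adjusted p of 0.0295. Its place among the 9, 22 and 25 members and among the 7 of DESeq2 supports nothing. A model with the zinc finger domain of DnaJ on the same chromosome (2007793 to 2011980) had 2.79 to 4.71 CPM against 4.38 to 9.91 CPM, and its groups overlapped. When a bird was left out, its log2 fold change ran from 0.81 to 1.38.

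The smallest unadjusted p of any member belonged to DNAJC7, which carries TPR repeats and binds both Hsp70 and Hsp90. It had 28.6, 33.4 and 31.0 CPM in normally-fed and 59.7, 65.0 and 47.6 CPM in high-intake-fed birds, so the birds of a group lay close together. The log2 fold change was 0.89 ± 0.20 (SE), with an adjusted p of 0.07495 in edgeR and 0.00861 in DESeq2. DNAJB12, a J-domain protein of the ER membrane, had 11.03, 9.34 and 10.96 CPM against 15.7, 24.8 and 17.4 CPM. Its log2 fold change was 0.89 ± 0.24 (SE), with adjusted p of 0.117 in edgeR and 0.0390 in DESeq2. By FPKM the DNAJB12 groups overlapped, at 2.04, 1.85 and 4.14 against 4.575, 7.88 and 2.87.

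Among the cytosolic J-domain proteins, DNAJA1 and DNAJA2 are the abundant general partners of Hsp70. DNAJA1 had 56.2, 62.1 and 79.1 CPM in normally-fed birds and 110, 167 and 79.5 CPM in high-intake-fed birds. In CPM, replicate 3 only just exceeded the highest normally-fed bird. By FPKM it lay below that bird, at 14.83 against 15.43. DNAJA2 had 68.2, 78.7 and 82.6 CPM against 104, 84.7 and 65.5 CPM. DNAJA1 had a log2 fold change of 0.85 ± 0.30 (SE) at an edgeR adjusted p of 0.192 (0.53 without high-intake-fed replicate 2), and DNAJA2 one of 0.14 ± 0.23 at 0.796. Their difference from each other was not tested.

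Of the J-domain proteins of mitochondria, DNAJA3 works with the mitochondrial Hsp70 of the matrix. It had 34.0, 38.7 and 33.6 CPM against 76.3, 71.3 and 39.9 CPM. Its groups were apart in CPM but overlapped by FPKM. TIM14, which drives protein import at the inner membrane, had 40.7, 58.0 and 63.0 CPM against 89.1, 61.9 and 31.7 CPM. In CPM, high-intake-fed replicate 1 thus lay above and replicate 3 below every normally-fed bird. By FPKM, TIM14 had 24.25, 33.26 and 36.67 against 33.98, 7.56 and 15.86. There replicate 1 lay within the normally-fed range and replicates 2 and 3 below it. The log2 fold changes of DNAJA3 and TIM14, from counts, were 0.82 ± 0.27 (SE) and 0.18 ± 0.37, at edgeR adjusted p of 0.167 and 0.851.

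Members that were lower in CPM in every high-intake-fed bird were sacsin, GAK and a DnaJ model on chromosome 2 (21698024 to 21727864). The groups of GAK overlapped by FPKM, at 5.49 to 6.59 against 4.29 to 5.72, while those of the other members named here did not. Sacsin, a very large protein of the cytoskeleton and the mitochondrial network, had 45.6, 49.4 and 43.4 CPM in normally-fed and 30.2, 34.0 and 32.2 CPM in high-intake-fed birds. Its log2 fold change was -0.52 ± 0.17 (SE) at an edgeR adjusted p of 0.173. GAK is the widely expressed auxilin, a kinase whose J domain recruits Hsc70 to strip clathrin from vesicles. It had 82.5, 87.4 and 81.8 CPM against 69.9, 57.2 and 65.2 CPM, with a log2 fold change of -0.39 ± 0.19 (SE) at an edgeR adjusted p of 0.316. Auxilin itself was at or below 2.92 CPM in every bird.

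The cytosolic chaperonin CCT (also called TRiC) is a ring of different subunits that folds actin and tubulin. All 8 subunits of the ring, alpha, beta, gamma, delta, epsilon, zeta, eta and theta, were measured, and all 8 had a fold change above 0. Their log2 fold changes ran from 0.52 for eta to 1.18 for alpha, with a median of 0.68. The subunits summed to 663, 759 and 918 CPM in normally-fed and to 1448, 1865 and 723 CPM in high-intake-fed birds. All 8 subunits lay above every normally-fed bird in high-intake-fed replicates 1 and 2, and 3 of 8 did so in replicate 3. The share of all tested mRNAs above every normally-fed bird in a given replicate was not counted. Whether these counts stand out from other mRNAs was therefore not tested.

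CCT alpha (chromosome 3, 78089735 to 78097360) was at 110, 126 and 169 CPM in normally-fed and at 327, 488 and 104 CPM in high-intake-fed birds, so that replicate 3 lay below all normally-fed birds. Its log2 fold change was 1.18 ± 0.50 (SE) at an edgeR adjusted p of 0.264. Without replicate 2 it was 0.68 at an edgeR adjusted p of 0.533, and without replicate 3 it was 1.60 at 0.0376. CCT beta (chromosome 1, 178486005 to 178498584) had 79.6, 98.0 and 112 CPM against 184, 222 and 96.1 CPM. CCT gamma had 78.7, 89.9 and 93.7 CPM against 150, 167 and 104 CPM, which did not overlap, with a log2 fold change of 0.68 ± 0.24 (SE) at an edgeR adjusted p of 0.188. Gamma, zeta and eta were the subunits whose groups did not overlap in CPM, and in each replicate 3 lay above the normally-fed birds. By FPKM the groups of zeta overlapped, with replicate 3 at 13.27 against 8.03 to 13.72 in normally-fed birds. Without replicate 3, alpha, beta and epsilon were the subunits past an adjusted p under 0.05.

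**Figure D3:**
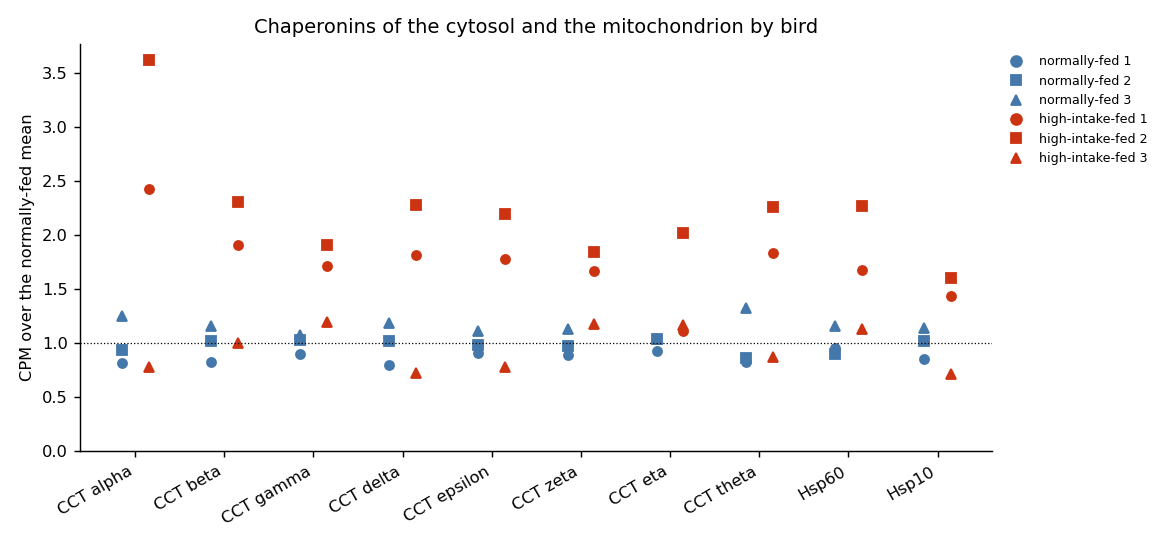
CPM of the 8 CCT subunits, Hsp60 and Hsp10 in each bird, divided by the mean of the normally-fed birds. High-intake-fed replicates 1 and 2 lay above all normally-fed birds for all 8 CCT subunits, and replicate 3 for 3 of them. The same share of all tested mRNAs was not counted.

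The mitochondrial chaperonin is made of Hsp60 and its lid Hsp10. Their models lay head to head on chromosome 7, Hsp10 on the minus strand (1602476 to 1606760) and Hsp60 on the plus strand (1607466 to 1616506), with 705 bases between them. Hsp60 had 551, 518 and 669 CPM in normally-fed and 973, 1313 and 656 CPM in high-intake-fed birds. Hsp10 had 143, 171 and 191 CPM against 242, 270.0 and 119 CPM. Both were highest in high-intake-fed replicate 2 and lowest of their group in replicate 3, where Hsp60 lay within the normally-fed range and Hsp10 below it. Log2 fold changes were 0.76 ± 0.33 (SE) for Hsp60 and 0.32 ± 0.33 for Hsp10, at edgeR adjusted p of 0.269 and 0.667. Without high-intake-fed replicate 2 they were 0.49 and 0.10, and for Hsp10 0.21 without replicate 1 and 0.61 without replicate 3.

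In the ER, the protein disulfide isomerases make and rearrange disulfide bonds, and calnexin holds glycoproteins until they are folded. PDI (chromosome 20, 399072 to 407168) had 844, 982 and 1100 CPM in normally-fed and 1196, 983 and 628 CPM in high-intake-fed birds. ERp57 (chromosome 13, 822028 to 830773), the isomerase that works with calnexin, had 582, 630.0 and 744 CPM against 811, 696 and 492 CPM. In both, replicate 1 was the highest and replicate 3 the lowest of all 6 birds, and the log2 fold changes were -0.06 ± 0.32 (SE) and 0.03 ± 0.29, at edgeR adjusted p of 0.945 and 0.967.

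ERp72 (chromosome 2, 59180931 to 59191806), a further disulfide isomerase, was the one whose groups did not overlap. It had 359, 415 and 484.5 CPM in normally-fed and 839, 598 and 532 CPM in high-intake-fed birds. Its log2 fold change was 0.65 ± 0.29 (SE) at an edgeR adjusted p of 0.282, and 0.43 without high-intake-fed replicate 1. Calnexin (chromosome 16, 6024333 to 6042381) had 381, 417 and 444 CPM against 631, 580.2 and 438 CPM, with a log2 fold change of 0.41 ± 0.26 (SE) at an edgeR adjusted p of 0.452.

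The J-domain proteins of the ER serve the Hsp70 of that compartment, BiP. SEC63 (chromosome 3, 53565797 to 53622715), which pairs BiP with the protein-conducting channel, had 195, 198 and 225 CPM against 387, 538.5 and 209 CPM. Its log2 fold change was 0.88 ± 0.35 (SE) at an edgeR adjusted p of 0.243, 1.17 at an adjusted p of 0.0463 without high-intake-fed replicate 3, and 0.53 at 0.450 without replicate 2. DNAJC3 (chromosome 1, 58916069 to 58947411), a co-chaperone that also inhibits the kinase PERK, had 129, 156 and 170 CPM against 224, 182 and 142 CPM. ERdj5, a disulfide reductase that helps degrade misfolded proteins, had 54.8, 66.8 and 78.3 CPM against 97.9, 92.7 and 61.6 CPM. For SEC63, DNAJC3 and ERdj5 alike, high-intake-fed replicate 3 lay within the range of the normally-fed birds while replicates 1 and 2 lay above it.

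**Figure D4:**
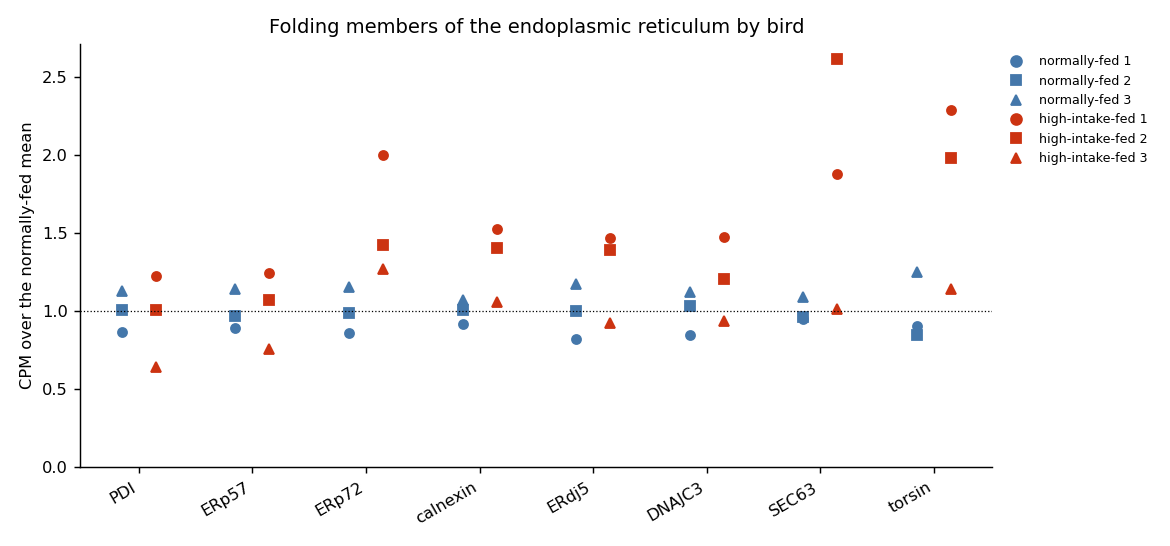
CPM of 8 folding members of the ER in each bird, divided by the mean of the normally-fed birds. ERp72 was the one of these with no overlap between groups, and high-intake-fed replicate 3 was the lowest bird for PDI at 628 CPM and for ERp57 at 492 CPM.

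The other members found by the ontology term alone had log2 fold changes of -0.25 to 0.85. A torsin on chromosome 23 (6020437 to 6025437), of the AAA+ family of the ER lumen, had 48.1 ± 10.4 CPM (SD, n = 3) in normally-fed birds and 110, 95.2 and 54.8 CPM in high-intake-fed birds. Replicate 3 lay among the normally-fed birds, and the log2 fold change was 0.85 ± 0.30 (SE) at an edgeR adjusted p of 0.188. ClpX (chromosome 13, 3726148 to 3744832), the unfoldase of a mitochondrial protease, had 203, 234 and 267 CPM against 367, 339 and 111 CPM. The 5 prefoldin subunits, which hand actin and tubulin to CCT, had log2 fold changes of -0.02 to 0.30.

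Levels can be compared between genes only per length. Per kilobase of coding sequence, the highest members in normally-fed birds were PDI at 625, Hsp10 at 545, ERp57 at 411, Hsp60 at 337 and calnexin at 221.5 CPM per kilobase. By the deposited FPKM the order changed, to PDI at 271, Hsp60 at 162, ERp57 at 122.6, Hsp10 at 85.15 and ERp72 at 82.3. Over the 73 tested members the FPKM was a median of 0.281 of the CPM per kilobase, and in 4 of them under 0.1 of it, so a member's place in this order depends on the measure. The cause was not tested.

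Of the 6 members not tested, none exceeded 13 counts in a library. DNAJC5B was at 0 counts in all 6 libraries. The others were a second DNAJB5 model, ERp27, a calreticulin-type model and 2 disulfide isomerase models on chromosome 18. The 79 models were spread over 27 chromosomes, and the pair of Hsp10 and Hsp60 and the pair of torsins were the only ones with under 20000 bases between them.

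The partner families of the co-chaperones were measured alongside. Of 9 tested Hsp70 family models, 4 were over 2-fold higher and 1 was over 2-fold lower at an unadjusted p under 0.05, where 4.26% and 5.33% of all tested mRNAs were. BiP rose from 356, 544 and 433 CPM to 1695, 1870 and 1166 CPM, with a log2 fold change of 1.83 ± 0.32 (SE) at an edgeR adjusted p of 0.0426, the 1 Hsp70 family model past that threshold. The BiP groups did not overlap, and its log2 fold change stayed between 1.69 and 2.03 when a bird was left out, but its adjusted p then passed the threshold only without high-intake-fed replicate 3 and ran from 0.0227 to 0.195. Of 4 Hsp90 family models 1 was over 2-fold higher at an unadjusted p under 0.05, and of 6 tested small heat shock protein models 4 were. The groups were apart for 2 of these 4 models. A further model overlapped, at 4.25, 7.21 and 2.19 CPM in normally-fed and 0.63, 390.8 and 29.7 CPM in high-intake-fed birds. The remaining model also overlapped, at 0.24 to 0.60 CPM against 2.43, 43.1 and 0.43 CPM. None of the 5 tested heat shock factor models passed either threshold. Of 9 tested models for ER stress and degradation, 1, an activating transcription factor, was over 2-fold higher. The 44 models with prolyl isomerase activity by ontology term, a list added after the data were seen, had a median log2 fold change of 0.10 over 37 tested, with 2 over 2-fold higher at an unadjusted p under 0.05, both of which carry TPR repeats, a share near that of all tested mRNAs.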

How the data were processed

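Per the labels and methods, the authors depleted ribosomal RNA, treated the adaptor-ligated cDNA with USER enzyme, filtered ribosomal reads (Bowtie2) and mapped the rest (HISAT2). They deposited raw counts and FPKM for 21009 gene models, with coding length, position and description. The methods name HTSeq for the ontology analysis and StringTie for other RNA classes, but no program for these mRNA counts. Build, annotation version and strand setting of the counting are not stated in the labels or methods. All coding lengths were multiples of 3, so they hold no UTR.

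The test was edgeR's quasi-likelihood fit (version 4.0.16) of group alone with TMM scaling, on the 12914 models that filterByExpr kept at its minimum count (10) and total (15). Each SE of a log2 fold change is its absolute value divided by the square root of the F statistic of this test. It is not a spread measured among birds. Alternatives were DESeq2 1.42.0, limma 3.58.1 and the others of the closing section. Single values were also compared by a two-sided exact permutation test of 3 birds against 3 on log2(CPM + 1), whose smallest p is 0.1. Scripts were tested on simulated data. Python 3.11.15 was used.

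Members and lists were chosen with earlier results of these data known. Named members are those past a threshold and, per class, the 3 highest by mean CPM and the 3 largest changes at 5 CPM or more. DNAJC7, DNAJB12, DNAJA1 to DNAJA3, TIM14, sacsin, GAK, auxilin, ERdj5, CCT gamma, BAG2 and the DnaJ model on chromosome 2 were chosen after their values were seen. No sequences of the models were used here.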

Additional observations from a re-analysis of the deposited data

How the results depend on the processing

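With 3 birds per group, a common biological coefficient of variation of 0.356 limits which changes can be called. The members higher at an adjusted p under 0.05 numbered 0 in edgeR and 0 with limma trend, RLE size factors, library size alone, sizes that leave out the 20 most abundant mRNAs, the replicate block and at least 10 counts in every library, but 7 in DESeq2 and 3 with no filter. The 7 of DESeq2 included the model on chromosome 33 (76706 to 79080) that passed the filter on low counts only through the high-intake-fed birds. Leaving out each bird gave 0 to 11. The members lower at an adjusted p numbered 0 throughout. Members over 2-fold higher at an unadjusted p numbered 9, and 5 to 17 when a bird was left out (5 without high-intake-fed replicate 2 or normally-fed replicate 1, 17 without high-intake-fed replicate 3); members so lower numbered 0, and 0 to 1. The shares of all mRNAs past that fold threshold when a bird was left out were not counted. The members' median log2 fold change stayed between 0.27 and 0.50 when a bird was left out and between 0.34 and 0.43 otherwise.

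To look for pairing, each bird's deviations from its group's mean log2 CPM were correlated between groups over the tested mRNAs. These are not correlations of the expression profiles themselves. Same-numbered birds had correlations of -0.113, 0.021 and -0.145, and differently numbered birds -0.073 to 0.178. So few and scattered values cannot decide whether the numbers pair the birds. The paper reports paired t-tests between the groups but describes no pairing of birds. The fit with the replicate block gave a median of 0.41 and 6 members over 2-fold higher. In that fit 61 of all tested mRNAs passed an adjusted p under 0.05. How many passed the fold threshold was not counted.

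Changes near 0 reversed. ERp57 went from 0.03 to -0.00046 without the 20 most abundant mRNAs. When a bird was left out, ERp57 ran from -0.14 to 0.21, PDI from -0.28 to 0.16, BAG1 from -0.056 to 0.20, ClpX from -0.059 to 0.59 and a Prefoldin_4-type subunit from -0.048 to 0.62.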
